A study of Mus musculus with 18 samples.

Results

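The 35 genes described here are the nuclear receptors listed for the liver, grouped by what they sense: bile acids and oxysterols, xenobiotics, fatty acids, retinoids, steroids and thyroid hormone, with HNF4, the RXR partners and orphan receptors beside them. They were listed by gene symbol, without a cut on expression but with earlier results of these data known. All 35 were found in both count tables, among 38924 gene identifiers in the male table and 23337 gene symbols in the female table. The family as listed holds 49 receptors in mouse, and the other 14 are summarised near the end. RNA was sequenced from livers of 18 mice aged 8 weeks, in 6 groups of 3, all fed a diet with 45% of its calories from fat. LDP males (mice 8, 10 and 11) and LDP females (39, 52 and 54) were C57BL6J mice given low-dose penicillin (LDP) from birth, and control males (5, 6 and 7) and control females (29, 30 and 32) were C57BL6J mice without antibiotic. The recipients were female Swiss Webster mice, born germ-free and then colonised with gut microbes: LDP-microbiota recipients (2, 5 and 8) received microbiota of LDP mice, and control-microbiota recipients (1, 3 and 7) received microbiota of control mice. No recipient was given penicillin. Mouse numbers are those of the labels, which do not give cage, litter or donor, so mice sharing one would be counted as independent.

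Nuclear receptors are transcription factors, most of which are switched on by a small lipid-soluble ligand bound in a pocket of the protein. In liver they tie gene expression to bile acids, sterols, fatty acids, drugs and hormones, some of which gut microbes make or alter. FXR, LXR, PXR, CAR, the PPARs, the retinoic acid and the thyroid hormone receptors bind DNA together with an RXR partner, at pairs of a hexamer close to AGGTCA, whereas HNF4 binds as its own dimer and LRH-1 and the RORs bind as single molecules. The activity of these proteins is set largely by ligand, so an mRNA level is a measure of the receptor's transcript and not of its activity.

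The promoters of Nr0b2 and Nr1h4 are shown as 2 examples, chosen after the values of the receptors were seen. The 2 genes form a known loop in which FXR, the product of Nr1h4, induces Nr0b2. The sequences are from RefSeq on GRCm38.p6, are the 250 bases before a transcript start that RefSeq lists and run 5′ to 3′ on the gene's strand. Capitals mark the hexamers AGGTCA and GGGTCA, which are receptor half-sites, and TCAAGG, the core of the site of Nr5a2 (LRH-1), each on either strand. The Nr0b2 promoter lies on chr4:133553126-133553375, plus strand, and the Nr1h4 promoter on chr10:89506659-89506908, minus strand. The Nr1h4 start lies inside the gene, downstream of the gene's outermost start, so that this promoter is the one of a shorter transcript.
Nr0b2: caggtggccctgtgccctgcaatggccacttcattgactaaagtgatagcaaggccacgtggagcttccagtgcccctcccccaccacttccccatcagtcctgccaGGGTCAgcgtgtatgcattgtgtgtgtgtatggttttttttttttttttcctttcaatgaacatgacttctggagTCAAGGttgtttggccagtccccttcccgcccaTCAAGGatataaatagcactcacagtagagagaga
Nr1h4: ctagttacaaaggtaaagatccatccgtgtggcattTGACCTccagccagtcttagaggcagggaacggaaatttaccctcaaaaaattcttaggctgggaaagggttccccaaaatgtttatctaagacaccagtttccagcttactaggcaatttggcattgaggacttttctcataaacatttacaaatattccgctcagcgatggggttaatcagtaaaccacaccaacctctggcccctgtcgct
Nr0b2 holds GGGTCA beginning at position -143 from that start and TCAAGG at -68 and -35. Nr1h4 holds AGGTCA on the opposite strand, read as TGACCT, at -214 from the start of that shorter transcript. Of the 48 promoters listed for 32 of the 35 receptors, 9 (18.8%) held AGGTCA, against 14% of all 32851 promoters. GGGTCA was in 10 of them (20.8%, against 11.6% of all), and TCAAGG in 5 (10.4%, against 12.5%). AGGTCA and TCAAGG can overlap, since the former can begin within the latter. None of the 48 promoters held a perfect pair of AGGTCA hexamers as a direct repeat spaced by 1 to 5 bases, an inverted repeat spaced by 1 or an everted repeat spaced by 6, arrangements that at most 0.0335% of all promoters held. These are matches of letters and not measured binding, and the counts do not separate transcripts from different starts.

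The libraries of the males held 70336366 to 74418889 counts and those of the females and recipients 17937005 to 28646168, so low receptors were measured more precisely in males. The 35 receptors together took 0.272% to 0.293% of the counts in males and 0.262% to 0.335% in the female table. All 10 hepatocyte markers were measured in every group, with summed levels of 84198 to 109847 library-scaled counts (CPM) in males, 162909 to 180376 in females and 140548 to 201358 in recipients. Among the recipients, long genes were lowest relative to short genes in the library of LDP-microbiota recipient 8 (long minus short genes, -0.32 on the log2 scale, against -0.03 to 0.16 in the other 5 libraries of the comparison). Sex and count table are the same split, with different gene models, so male and female levels are given but not compared. The hepatocyte marker Ass1, for example, had 64183 to 84673 counts per male library and 98 to 276 in the female table. Trf went the other way, at 30142 to 38297 in males and 329754 to 535202 in the female table.

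Scaled for gene length, Hnf4a, which maintains the hepatocyte programme, was the most abundant receptor transcript in all 6 groups. In control males it stood at 194 CPM per kilobase of gene model (183 to 206 in the 3 mice), above Rxra, the main RXR partner of liver, at 91.7 (87.1 to 96.7). The next places in control males were taken by Nr1h4 at 59.2, Nr1i3 at 52.1 and Ppara at 49.5 CPM per kilobase, and Nr1i3 (46.9 to 61.0) overlapped both neighbours. The PXR gene Nr1i2 (39.3 to 45.0) and the LXR gene Nr1h3 (35.8 to 37.9) followed without overlap.

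In control females the order was Hnf4a at 193 CPM per kilobase, Ppara at 137, Rxra at 100.4, Nr1i3 at 68.9, Nr1h4 at 58.9, Nr1i2 at 50.8 and Nr1h3 at 42.9, and no neighbouring ranges of these 7 overlapped. Control-microbiota recipients began with Hnf4a at 179, Ppara at 104, Rxra at 90.5 and Nr1i3 at 75.1 CPM per kilobase, again without overlap. Below them Nr1h4 (43.7 to 49.8), Nr1h3 (42.1 to 48.2) and Nr1i2 (32.5 to 54.6) overlapped. The lowest of the 35 in each group was Vdr, the vitamin D receptor, at 0.00814, 0.0155 and 0.0330 CPM per kilobase in the 3 control groups. Hnf4g, Nr2f1 and Nr4a2 stood just above it, with means of at most 0.222 CPM per kilobase in the control groups. Lengths come from the male table and were carried to the female table by symbol, which is approximate.

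**Figure D1:**
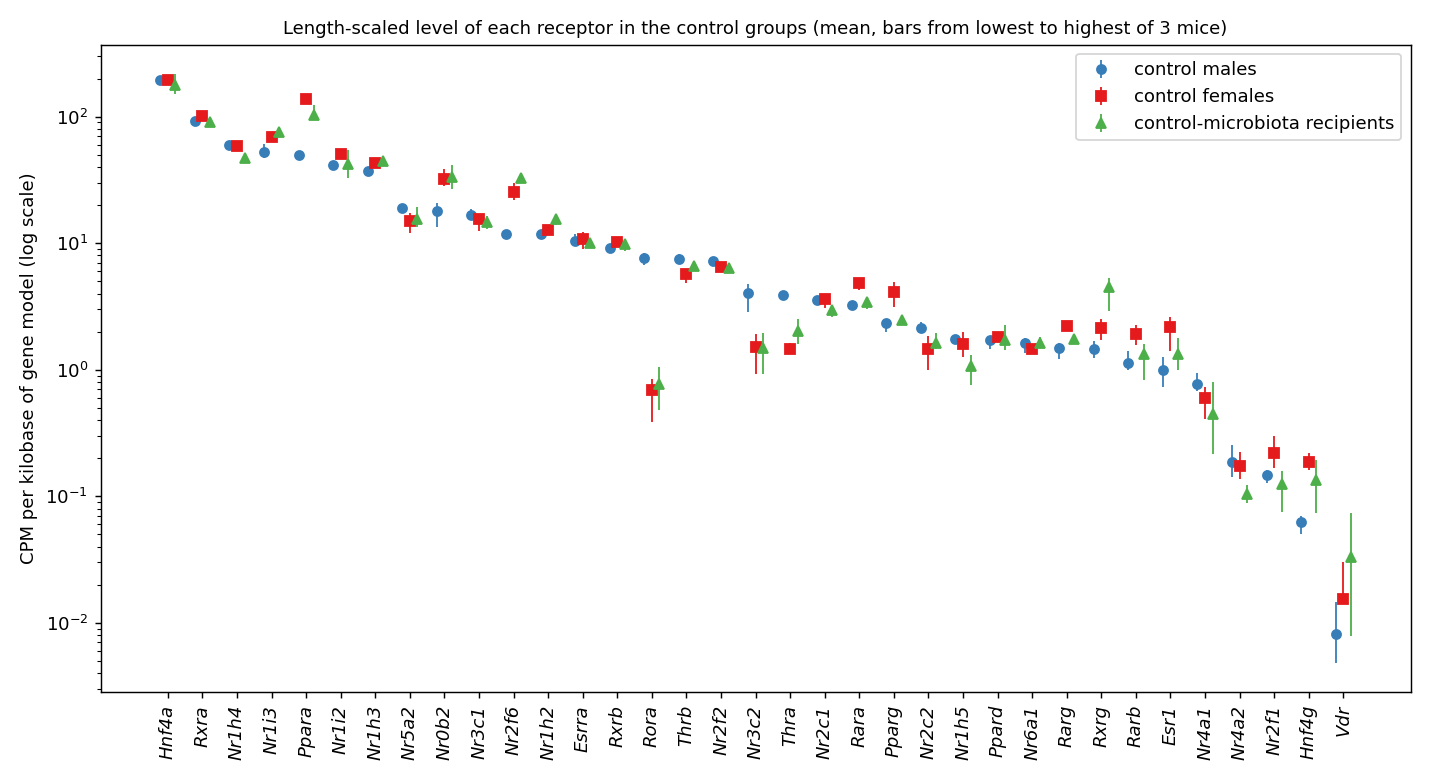
Length-scaled level of the 35 receptors in the 3 control groups, in CPM per kilobase of gene model on a log axis. Points are means and bars run from the lowest to the highest of 3 mice, with no lower bar for Vdr in control females, where the lowest mouse was at 0. Hnf4a leads in each group (194, 193 and 179 CPM per kilobase) and Vdr is last.

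Spread between mice differed widely among the receptors. In control males the coefficient of variation over 3 mice had a median of 10.9% for the 35 receptors, and Ppara varied by only 0.326%. Among control females the median was 15.5%, from Nr2f2 at 2.65% to Rora at 37.6% and Vdr at 96.9%. Control-microbiota recipients had a median of 16.7%, from Rxra at 0.833% to Nr4a1 at 69.9% and Vdr at 107%. With 3 mice such a value can fall below counting noise.

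No receptor changed in any comparison after adjustment over all genes with edgeR, or with DESeq2 where it gave an adjusted p. In males, 34 receptors were tested (Vdr was too low), of which 17 were higher and 17 lower in LDP mice, with a median log2 fold change of 0.01 beside 0.00 over all 15438 genes. None passed, in a comparison where 0.00648% of genes did, and the smallest adjusted p was 0.920. At an unadjusted p under 0.05, 2 receptors were higher (Nr1h4 and Hnf4g), against a background of 3.17% of genes, and 2 were lower (Nr5a2 and Ppard), against 2.06%. Groups did not overlap for 2 higher receptors (Nr1h4 and Nr2f1; 5.69% of all genes) and 2 lower ones (Nr5a2 and Ppard; 4.84% of all genes).

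In females 34 receptors were tested, 14 higher and 20 lower in LDP mice, with a median log2 fold change of -0.02 beside 0.00 over all 12914 genes. None passed, as did 0% of genes, and the smallest adjusted p was 0.999. No receptor was higher at an unadjusted p under 0.05, where 2.69% of genes were, and 2 were lower (Nr0b2 and Rara), where 1.82% of genes were. Nr2f2 was the 1 higher receptor without overlap between groups (4.97% of all genes), and Hnf4a the 1 lower (4.15% of all genes).

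In recipients 33 receptors were tested, without Vdr and Nr4a2, and 16 were higher and 17 lower with LDP microbiota, with a median log2 fold change of -0.02 beside -0.01 over all 12780 genes. None passed, where 0.00782% of genes did, and the smallest adjusted p was 0.846. At an unadjusted p under 0.05, Nr1h4 and Pparg were higher (2.25% of all genes were) and none was lower (2.86% of all genes were). The same 2 receptors were the higher ones without overlap (6.13% of all genes), and Nr2c1 was the 1 lower (5.56% of all genes). Counts of 0 to 2 among so few receptors are close to these backgrounds. The same shares apply to the counts of listed target and marker genes given below. In the text below, adjusted p is that of edgeR's quasi-likelihood test over all genes, and values per mouse are CPM in the order of mouse numbers given above.

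**Figure D2:**
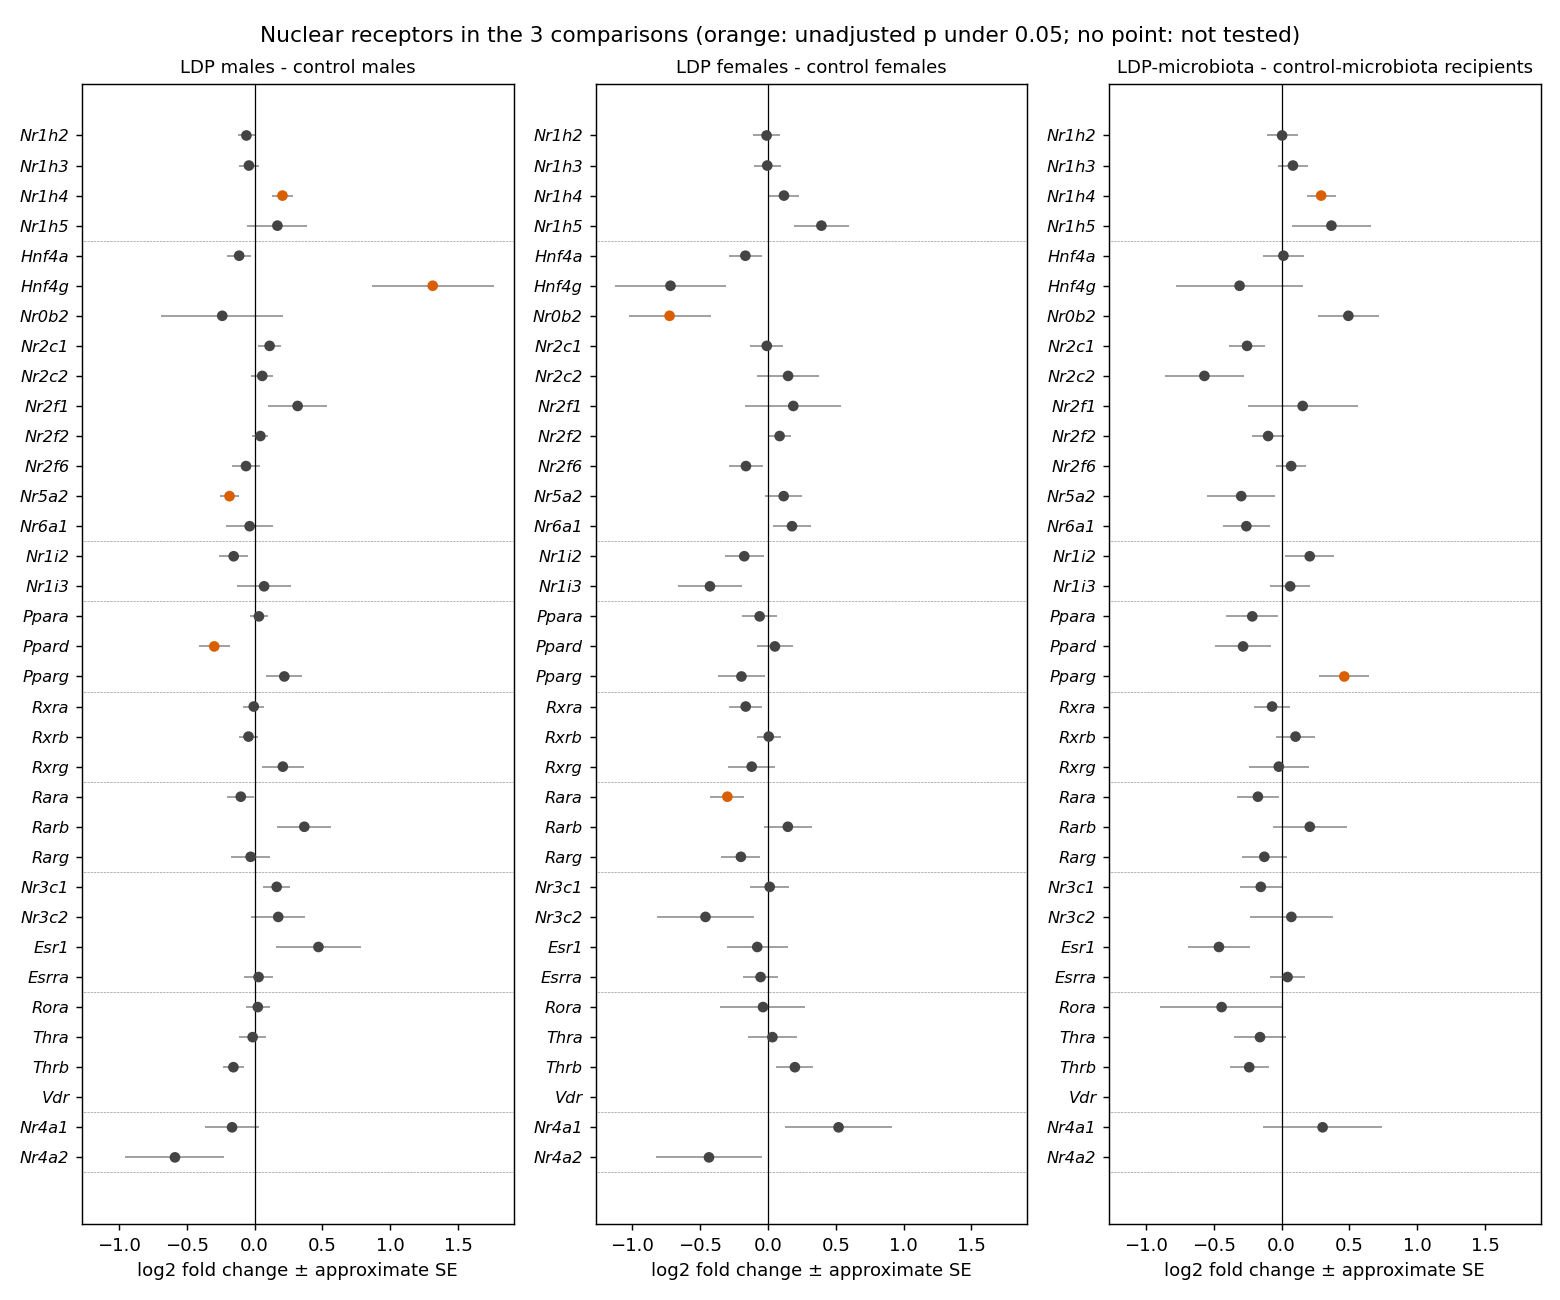
Log2 fold change of each receptor in LDP males, LDP females and LDP-microbiota recipients against their controls, with approximate standard errors, 3 mice against 3. Receptors are in blocks by what they sense, and the 8 orange points have an unadjusted p under 0.05: 4 in males, 2 in females and 2 in recipients. None passes after adjustment.

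The bile acid receptor gene Nr1h4 (chr10:89454234-89533645, GRCm38.p6) was higher in LDP males than in every control male, and likewise in LDP-microbiota recipients. In LDP males it was at 163, 147 and 162 CPM and in control males at 127, 138 and 143, a log2 fold change of 0.21 (SE 0.0757, adjusted p = 0.920). In LDP-microbiota recipients it was at 132, 136 and 133 CPM, a narrow band above the 101, 115 and 112 of control-microbiota recipients, and the log2 fold change was 0.29 (SE 0.107, adjusted p = 0.846). LDP females had 151, 134 and 156 CPM and control females 132, 147 and 127. There the groups overlapped, since LDP female 52 lay below control female 30, and the log2 fold change was 0.12 (SE 0.108, adjusted p = 0.999). With TMM replaced by library size alone, the recipients' value was 0.22 (adjusted p = 0.752).

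Nr0b2 (chr4:133553376-133556686) encodes SHP, a receptor without a DNA-binding domain that is induced by FXR and represses bile acid synthesis. Its mean was lower in LDP females and higher in LDP-microbiota recipients than in their controls. In LDP females it was at 33.2, 17.0 and 15.7 CPM and in control females at 43.7, 33.3 and 32.2, so LDP females 52 and 54 were below every control while LDP female 39 lay among them. The log2 fold change was -0.73 (SE 0.302, adjusted p = 0.999). In LDP-microbiota recipients the transcript was at 66.3, 38.5 and 53.3 CPM, against 30.3, 47.3 and 34.7, and only recipients 2 and 8 exceeded every control. That log2 fold change was 0.49 (SE 0.227, adjusted p = 0.846). Males overlapped throughout, at 14.6, 9.23 and 27.9 CPM with LDP and 23.5, 15.1 and 22.3 without (log2 fold change -0.24, SE 0.449, adjusted p = 0.957).

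The difference between the effect of penicillin in females and that of the transferred microbiota on Nr0b2 was -1.23 on the log2 scale (SE 0.421, adjusted p = 0.788 in the interaction test of edgeR). Over 16 alternatives, which include leaving out each mouse in turn, this difference lay between -1.66 and -1.03. The female effect itself was -1.16 without LDP female 39 (adjusted p = 0.217) and -0.53 without LDP female 54. Of the 13295 genes tested for this difference, 5.94% had an unadjusted p under 0.05 and 0% passed, and 2 of 34 receptors, Nr0b2 and Pparg, were at an unadjusted p under 0.05.

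Genes under FXR control, Nr0b2 among them, were listed as its targets. FXR induces Nr0b2, whereas Cyp7a1 belongs to bile acid synthesis, which SHP represses. Counts of higher and lower genes and the list's median therefore give no direction of FXR activity. In males 7 of 11 tested were higher and 4 lower, and 2 had an unadjusted p under 0.05: Cyp7a1, the rate-limiting enzyme of bile acid synthesis, at 338 ± 79.5 (SD, n = 3) against 207 ± 68.0 CPM (log2 fold change 0.70, adjusted p = 0.920), and Abcb4, the phospholipid exporter of bile, at 294 ± 34.4 against 371 ± 54.8 (log2 fold change -0.33, adjusted p = 0.920). In females 6 of 11 were higher and 5 lower, and Nr0b2 was the only 1 at an unadjusted p under 0.05. In recipients 7 were higher and 4 lower, and none was at that level. The list's median log2 fold change was 0.01, 0.07 and 0.03 in males, females and recipients.

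The oxysterol receptor genes, which govern cholesterol export and lipogenesis, differed little. Nr1h3 (LXR alpha) stood at 82.5 to 97.1 CPM in LDP males and 90.1 to 95.4 in their controls, with log2 fold changes of -0.04, -0.01 and 0.08 in males, females and recipients. Nr1h2 (LXR beta) had log2 fold changes of -0.06, -0.01 and 0.00. Nr1h5, the second FXR gene of mice, was higher on average in all 3 comparisons, by 0.17, 0.39 and 0.37, with overlapping groups and adjusted p-values of 0.940, 0.999 and 0.846. Among 12 LXR targets, 7 were higher and 5 lower in males, 5 and 7 in females, and 4 and 8 in recipients. At an unadjusted p under 0.05 in males were Cd5l, also a Kupffer cell gene, with a log2 fold change of -0.40, Lpcat3, a phospholipid remodelling enzyme, at 0.19, and Pnpla3, a lipid droplet hydrolase, at 0.90 from a level under 1 CPM. No LXR target was at that level in females, and in recipients only Abca1, the cholesterol exporter, was, at 198 ± 34.4 against 269 ± 51.6 CPM (SD, n = 3; log2 fold change -0.44, adjusted p = 0.846).

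**Figure D3:**
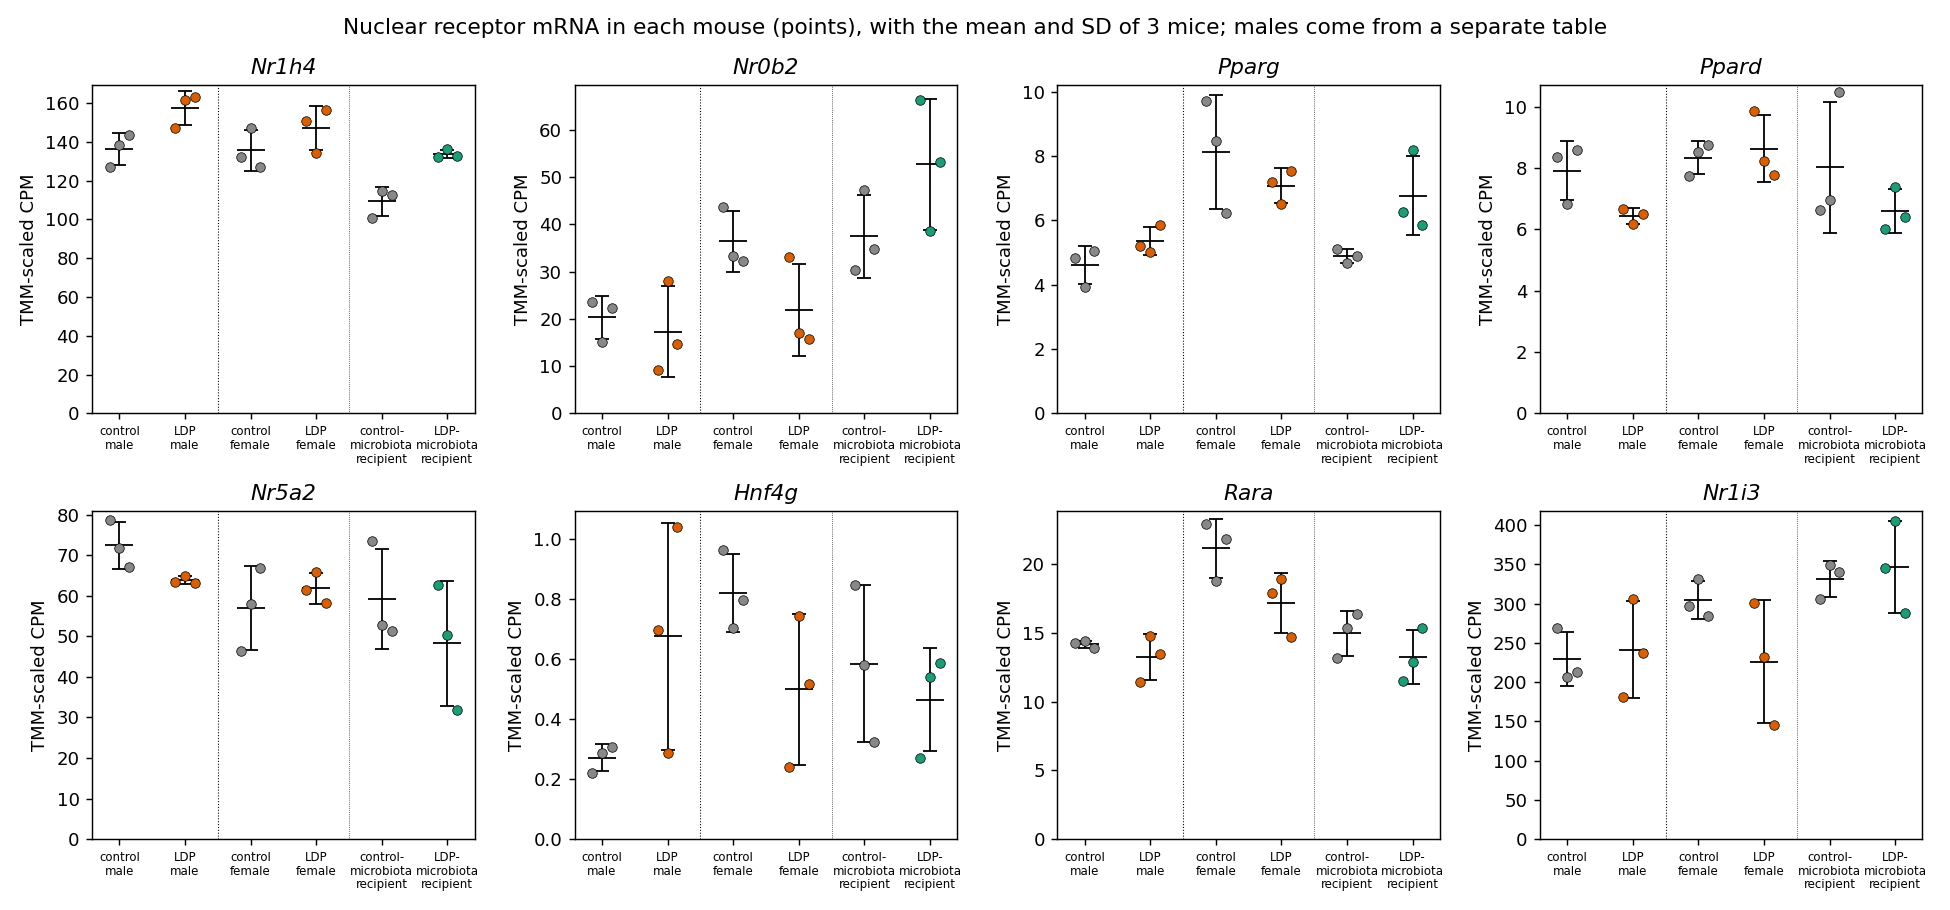
CPM of 8 receptors in each mouse (points), with the mean and SD of 3 mice, for the 6 groups, males left of the first dotted line and recipients right of the other. Nr1h4 separates the groups in males and recipients, Nr0b2 is low in LDP females 52 and 54 and high in LDP-microbiota recipients 2 and 8, and Hnf4g is higher in LDP males 8 and 10 than in the other 4 males.

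Among HNF4 and the orphan regulators, Hnf4a was slightly lower in LDP females without overlap. LDP females had 834, 839 and 821 CPM and control females 1035, 899 and 865, a log2 fold change of -0.17 (SE 0.122, adjusted p = 0.999). The control nearest to the LDP females was female 32, at 865 CPM, and without control female 29, the highest, the log2 fold change was -0.09 (adjusted p = 0.999). Males were at 899, 795 and 907 CPM with LDP and 883, 995 and 935 without, overlapping ranges (log2 fold change -0.11, SE 0.0877, adjusted p = 0.920). Recipients were at 876, 930.5 and 818 CPM with LDP microbiota and, with a wider spread, 731, 821 and 1047 without (log2 fold change 0.01, SE 0.152, adjusted p = 0.989). Of 16 HNF4A targets 10, 7 and 8 were higher in males, females and recipients, with medians of 0.02, -0.04 and 0.00, and the 1 gene at an unadjusted p under 0.05 was the carboxylesterase gene Ces3a in recipients (log2 fold change 0.44, adjusted p = 0.846).

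Hnf4g (chr3:3508030-3659800), the paralogue of Hnf4a best known from intestine, is near the limit of detection in liver. LDP males 8, 10 and 11 had 73, 53 and 20 counts and control males 16, 21 and 22, which is 1.04, 0.696 and 0.287 against 0.220, 0.287 and 0.305 CPM. LDP males 8 and 10 were above every control and LDP male 11 was among the controls. The log2 fold change was 1.31 (SE 0.451, adjusted p = 0.920), and it was 1.67 without LDP male 11 (adjusted p = 0.0786) and 0.87 without LDP male 8. In females the order was the other way, 0.239, 0.742 and 0.516 CPM with LDP and 0.961, 0.702 and 0.795 without (log2 fold change -0.72, SE 0.408, adjusted p = 0.999). In recipients the values were 0.269, 0.539 and 0.586 against 0.846, 0.580 and 0.323 CPM (log2 fold change -0.31, SE 0.465, adjusted p = 0.915).

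For Hnf4g the difference between the male and the female effect was 2.02 (SE 0.669, adjusted p = 0.99997). It was the 1 receptor of 34 with an unadjusted p under 0.05 in that test, where 2.72% of 12750 genes were and 0% passed. Pancreas is another source of this transcript in the body. Of 6 pancreas markers only 1 was expressed enough to be tested in males, and 3 had 0 counts in every LDP male. Their summed level was 12.9 to 18.6 CPM in LDP males and 14.9 to 19.1 in control males. A part of pancreas in the Hnf4g value was not tested.

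Nr5a2, which encodes LRH-1, an activator of bile acid synthesis genes, was lower in every LDP male than in any control. LDP males had 63.1, 63.3 and 64.9 CPM and control males 78.6, 71.7 and 67.1, a log2 fold change of -0.18 (SE 0.0718, adjusted p = 0.920). The LDP males lay close together, while the controls were spread down to 67.1, and without control male 5, the highest, the log2 fold change was -0.12 (adjusted p = 0.99984). In females the values were 61.3, 66.0 and 58.3 against 46.3, 58.0 and 66.9 CPM (log2 fold change 0.12, SE 0.135, adjusted p = 0.999), with control female 29 lowest. In recipients they were 62.6, 50.2 and 31.9 against 73.5, 52.8 and 51.4 CPM (log2 fold change -0.30, SE 0.250, adjusted p = 0.848), and LDP-microbiota recipient 8, whose long genes were low, had the lowest value.

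The COUP-TF genes, orphan repressors with roles in vessels and stroma, gave narrow gaps. Nr2f1 was at 0.897, 0.867 and 0.876 CPM in LDP males and 0.755, 0.601 and 0.763 in control males (log2 fold change 0.32, SE 0.220, adjusted p = 0.920). Nr2f2 was at 32.4, 34.1 and 34.0 CPM in LDP females and 31.7, 32.3 and 30.7 in control females (log2 fold change 0.09, SE 0.0832, adjusted p = 0.999). Without control male 6 the Nr2f1 value was 0.21 (adjusted p = 0.989). In both cases the margin between the groups was smaller than the spread of the controls. Stromal markers were higher in LDP females, with 9 of 10 fibroblast and matrix genes higher. With Col3a1 first (log2 fold change 1.10, adjusted p = 0.206), 8 were higher at an unadjusted p under 0.05, against 2.69% of all genes. Summed levels were 213 to 268 CPM against 126 to 150, and no marker was at 0. Whether this had a part in the Nr2f2 value was not tested, and in bulk liver RNA more cells of a type and more RNA per cell cannot be told apart.

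Nr2c1, an orphan receptor that mostly represses its targets, was lower in every LDP-microbiota recipient, at 12, 10.9 and 11.6 CPM against 12.1, 14.6 and 14.5 in the controls, a log2 fold change of -0.25 (SE 0.133, adjusted p = 0.846). The gap rests on control-microbiota recipient 1, at 12.1 CPM. With an offset for gene length per library the log2 fold change was -0.16 (adjusted p = 0.898), and the median over all genes moved from -0.01 to 0.06. Its relative Nr2c2 had a log2 fold change of -0.57 there (adjusted p = 0.846), and LDP-microbiota recipient 8 was lowest at 6.15 CPM. In males and females Nr2c1 was at 0.11 and -0.01, and Nr2c2 at 0.06 and 0.15. Nr2f6, a repressor in lymphocytes and liver, had log2 fold changes of -0.06, -0.16 and 0.07 in males, females and recipients, and Nr6a1, the germ cell nuclear factor gene, -0.04, 0.18 and -0.26.

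The xenobiotic sensors were lower on average in LDP females, with overlap. Nr1i3 encodes CAR, which responds to phenobarbital-like compounds and bilirubin. LDP females had 301, 232 and 145 CPM, a coefficient of variation of 34.5%, and control females 297, 331 and 285. LDP females 52 and 54 were below all controls and LDP female 39 was within them, and the log2 fold change was -0.43 (SE 0.236, adjusted p = 0.999). In males the values were 238, 181 and 305 CPM with LDP and 269, 207 and 213 without (log2 fold change 0.07, SE 0.200, adjusted p = 0.973). In recipients they were 346, 405 and 288 against 306, 349 and 339.8 CPM (log2 fold change 0.06, SE 0.145, adjusted p = 0.945). In both of these comparisons the mice with LDP or its microbiota lay on both sides of their controls.

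Nr1i2 encodes PXR, the sensor of many drugs and of secondary bile acids. Its log2 fold changes were -0.15 in males, -0.18 in females and 0.21 in recipients, all with overlapping groups. In females the lowest mouse was again LDP female 54, at 91.2 CPM. Of CAR and PXR targets, the higher ones were 10 of 16 tested with LDP in males, 7 of 17 with LDP in females and 9 of 16 with LDP microbiota, with medians of 0.07, -0.02 and 0.04. In males Cyp3a13 (log2 fold change 0.32), Abcc3 (-0.42) and Por (-0.19), genes of drug oxidation and export, were at an unadjusted p under 0.05, and in females Gstm3, a glutathione transferase, was (0.47). In recipients Alas1, the first enzyme of haem synthesis, was at 859 ± 241 against 441 ± 12.7 CPM (SD, n = 3; log2 fold change 0.96, adjusted p = 0.846). Cyp3a13 was at -0.68 there, opposite in sign to its value in males, and Cyp2b13 at 0.58.

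The fatty acid sensors comprise the 3 PPAR genes. Ppara, which drives fatty acid oxidation in fasting, was nearly level in males, at 198, 200.3 and 184 CPM with LDP and 189.6, 191 and 189.7 without (log2 fold change 0.03, SE 0.0670, adjusted p = 0.961). In females it was at 564, 492 and 452 CPM against 496, 569 and 509 (log2 fold change -0.06, SE 0.128, adjusted p = 0.999). Recipients were at 309, 441 and 278 against 358, 366 and 470.1 CPM (log2 fold change -0.22, SE 0.192, adjusted p = 0.852). The groups overlapped in each case.

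Of 25 PPARA targets, all tested, 24 were lower in LDP males, 25 were lower in LDP females and 24 were higher in LDP-microbiota recipients. None passed after adjustment, and the medians were -0.18, -0.43 and 0.20 beside 0.00, 0.00 and -0.01 for all genes. Lower at an unadjusted p under 0.05 were 1 in males and 11 in females, beside 2.06% and 1.82% of all genes. In recipients 6 were higher at that level, beside 2.25% of all genes. In females the smallest p-values were those of the fatty acid hydroxylase genes Cyp4a14, at 813 ± 109 against 2009 ± 1051 CPM (SD, n = 3; log2 fold change -1.30, adjusted p = 0.999), and Cyp4a10 (-0.93), and of the peroxisomal thiolase gene Acaa1b (-0.66). In males it was Slc25a20, the carnitine carrier (-0.28, adjusted p = 0.920). In recipients Fabp1, the liver fatty acid-binding protein, was at 3875 ± 415 against 2215 ± 305 CPM (SD, n = 3; log2 fold change 0.81, adjusted p = 0.777), Acaa1b at 0.70 and Hadhb, a subunit of the mitochondrial trifunctional protein, at 0.42. These genes are counted with close paralogues in the Cyp4a and Acaa1 families, and how reads matching more than 1 gene were treated is not given in the sources used here. The list was drawn up with this pattern already known, so its counts are no independent evidence.

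Ppard, the PPAR of most tissues, was lower in every LDP male. LDP males had 6.49, 6.66 and 6.16 CPM and control males 8.35, 6.81 and 8.57, a log2 fold change of -0.30 (SE 0.115, adjusted p = 0.920). The margin to control male 6, at 6.81 CPM, was small beside the spread of the controls. In females the log2 fold change was 0.05 and in recipients -0.28, both with overlap.

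Pparg (chr6:115360879-115490404), the adipogenic PPAR, was higher in every LDP-microbiota recipient. The LDP-microbiota recipients had 6.28, 8.19 and 5.86 CPM and the controls 5.12, 4.68 and 4.89, a log2 fold change of 0.46 (SE 0.183, adjusted p = 0.846). Recipient 5 was farthest from the controls, and without it the log2 fold change was 0.31 (adjusted p = 0.932). In LDP females the values were 7.20, 6.5 and 7.55 CPM against 9.72, 8.48 and 6.22 (log2 fold change -0.20, SE 0.173, adjusted p = 0.999), and in LDP males 5.85, 5.22 and 5.03 against 4.84, 3.94 and 5.04 (log2 fold change 0.22, SE 0.132, adjusted p = 0.920). The female effect minus the recipient effect was -0.67 (SE 0.252, adjusted p = 0.788). With library size alone the recipients' value was 0.39 (adjusted p = 0.752).

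Of the 7 adipocyte markers in recipients, Plin1, Retn and Lep had 0 counts in all 6 libraries, and Adipoq and Cfd at most 2 and 1 counts in a library. Adrb3, the beta-3 adrenergic receptor, was at 17.7 ± 14.8 CPM with LDP microbiota and 26.5 ± 22.04 without (SD, n = 3; log2 fold change -0.58, adjusted p = 0.939). The summed level of the 7, 2165 to 2568 CPM with LDP microbiota and 693 to 1415 without, came almost wholly from Car3, which hepatocytes also express. Car3, the only other of the 7 tested in recipients, was higher without overlap (log2 fold change 1.23, adjusted p = 0.777; 6.13% of all genes were higher without overlap). It was also at an unadjusted p under 0.05, where 2.25% of all genes were higher. Of 10 PPARG targets, the higher ones were 4 of 7 tested in LDP males, 3 of 7 in LDP females and, in recipients, 3 of 6. Cd36, the fatty acid translocase, was higher in males (log2 fold change 0.31) and Mogat1, an acylglycerol synthase, lower (-1.06, from under 1 CPM), each at an unadjusted p under 0.05. In females Lpl, the lipoprotein lipase, was at 1.09 and Plin4, a lipid droplet coat protein, at -0.86, and in recipients no target was at that level.

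**Figure D4:**
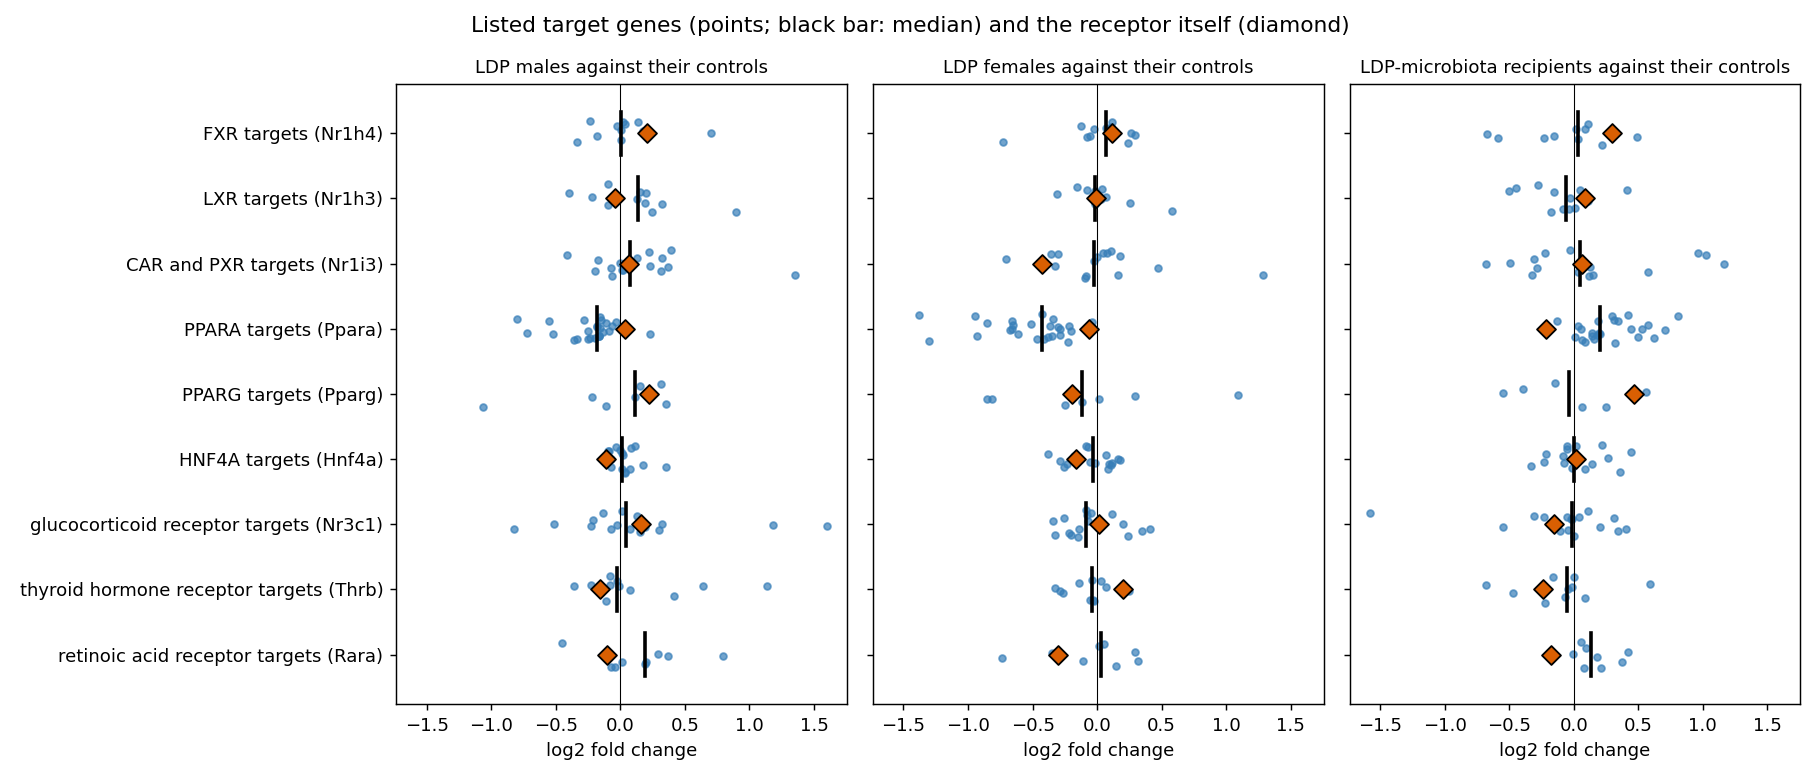
Log2 fold change of listed target genes (points, with the list's median as a bar) beside that of the receptor named in brackets (diamond), in the 3 comparisons. Targets of PPARA lie to the left in LDP males and females (medians -0.18 and -0.43) and to the right in LDP-microbiota recipients (0.20), while Ppara itself is at 0.03, -0.06 and -0.22. The FXR list holds both induced and repressed genes, so its median gives no direction.

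The RXR genes, whose products partner most of the receptors above, showed overlapping groups throughout. Rxra was at 488, 488 and 521 CPM in LDP males and 476, 499 and 528 in control males (log2 fold change -0.01, SE 0.0768, adjusted p = 0.994). In females it was at 534, 503 and 430.0 CPM against 558, 556 and 531, with LDP females 52 and 54 below all controls (log2 fold change -0.16, SE 0.122, adjusted p = 0.999). Control-microbiota recipients were close to each other, at 498, 495 and 490.0, and LDP-microbiota recipients lay on both sides of them, at 457, 551 and 406 (log2 fold change -0.07, SE 0.135, adjusted p = 0.937). Rxrb had log2 fold changes of -0.04, 0.01 and 0.10, and Rxrg, the RXR of muscle and nerve, 0.21, -0.12 and -0.02, in males, females and recipients.

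Of the retinoic acid receptor genes, Rara was lower on average in LDP females. LDP females had 17.9, 18.9 and 14.7 CPM and control females 22.9, 18.8 and 21.8, and only LDP female 52 was above a control, female 30, by a small margin. The log2 fold change was -0.30 (SE 0.125, adjusted p = 0.999), and -0.20 without LDP female 54. Males were at 13.4, 11.4 and 14.8 against 14.2, 14.4 and 13.9 CPM (log2 fold change -0.10, SE 0.100, adjusted p = 0.929). Recipients were at 11.5, 12.9 and 15.4 against 13.2, 15.3 and 16.3 CPM (log2 fold change -0.17, SE 0.152, adjusted p = 0.852). Rarb, which is itself induced by retinoic acid and is expressed in stellate cells, had log2 fold changes of 0.37, 0.15 and 0.21 in the 3 comparisons, and Rarg -0.03, -0.20 and -0.13. Of 12 retinoic acid targets, the higher ones were 6 of 9 tested in LDP males, 5 of 8 in LDP females and, in recipients, 7 of 8. Lrat, the retinol esterifying enzyme of stellate cells, was the 1 at an unadjusted p under 0.05, in females, at 33.1 ± 1.22 against 26.6 ± 4.56 CPM (SD, n = 3; log2 fold change 0.31, adjusted p = 0.999). Stellate cell markers were higher there for 10 of 12 genes, with summed levels of 709 to 866 against 663 to 769 CPM and none at 0. The part of cell numbers in this value was not tested.

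Among steroid and oestrogen-related receptors, Nr3c1, the glucocorticoid receptor gene, was the most abundant per length. It was at 155, 133 and 128 CPM in LDP males and 113, 139 and 118 in control males (log2 fold change 0.16, SE 0.101, adjusted p = 0.920). Females were at 98.9, 124 and 124 against 93.0, 123 and 127 CPM (log2 fold change 0.01, SE 0.145, adjusted p = 0.999). In recipients the values were 116, 98.1 and 82.1 against 123, 110.4 and 95.9 CPM (log2 fold change -0.15, SE 0.153, adjusted p = 0.866), with recipient 8 lowest. Of 16 glucocorticoid targets, 9, 5 and 7 were higher in males, females and recipients. The metallothionein genes Mt2 and Mt1, induced by glucocorticoids and by metals, were higher in every LDP male, Mt2 at 58.9 ± 29.3 against 19.5 ± 7.38 CPM (SD, n = 3; log2 fold change 1.60, adjusted p = 0.920) and Mt1 at a log2 fold change of 1.19. Sgk1, a glucocorticoid-induced kinase, was at -0.34 in females, and Lcn2, an acute-phase iron-binding protein, at -1.58 in recipients (adjusted p = 0.846).

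Esr1, the oestrogen receptor alpha gene, had a log2 fold change of 0.47 in males and -0.46 in recipients, with overlap. LDP males were at 19.2, 24.6 and 12.3 CPM and control males at 13.3, 17.2 and 9.93, a wide spread in both. LDP-microbiota recipients were at 14.2, 14.8 and 10.5 and controls at 24.4, 16.4 and 13.7 CPM (adjusted p = 0.846). In females it was -0.08. Nr3c2, the mineralocorticoid receptor gene, was at 0.17, -0.46 and 0.07 in males, females and recipients, and Esrra, a regulator of mitochondrial genes, at 0.03, -0.05 and 0.04. Of the targets of these receptors 3 of 10, 1 of 9 and 6 of 9 tested were higher, and Lifr, a cytokine receptor, was the 1 at an unadjusted p under 0.05, in recipients (log2 fold change 0.77).

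Thrb encodes the thyroid hormone receptor that dominates in liver. It was at 43.2, 47.0 and 42.4 CPM in LDP males and 53.5, 46.9 and 47.3 in control males, where only LDP male 10 reached the controls (log2 fold change -0.16, SE 0.0761, adjusted p = 0.920). In females it was at 36.6, 45.7 and 47.7 against 31.8, 40.1 and 41.3 CPM (log2 fold change 0.20, SE 0.136, adjusted p = 0.999). Control-microbiota recipients were almost equal, at 43.4, 43.1 and 42.6 CPM, and LDP-microbiota recipients were at 42.7, 37.3 and 29.5, so that recipient 2 alone overlapped them (log2 fold change -0.24, SE 0.143, adjusted p = 0.846). Thra was at -0.01, 0.03 and -0.16 in the 3 comparisons. Of the thyroid hormone targets, 4 of 11, 3 of 11 and 2 of 10 tested were higher. At an unadjusted p under 0.05 were the lipogenic gene Fasn in males (log2 fold change 0.64) with Gpd2, a mitochondrial glycerol phosphate dehydrogenase (-0.36), and in recipients the lipogenic regulator Thrsp (0.59) with Slc16a10, a thyroid hormone transporter (-0.47).

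Rora, a constitutive activator tied to the clock, led its group per length in males, at 103, 95.9 and 106 CPM with LDP and 109, 103 and 87.8 without (log2 fold change 0.02, SE 0.0884, adjusted p = 0.977). In females it was at 6.29, 9.64 and 10.6 against 5.09, 11 and 10.8 CPM (log2 fold change -0.04, SE 0.313, adjusted p = 0.999), and in recipients at 11.4, 7.70 and 3.44 against 13.6, 6.33 and 10.5 (log2 fold change -0.44, SE 0.456, adjusted p = 0.872). Recipient 8 was lowest and the groups overlapped. Of its targets and those of the REV-ERB repressors, the higher ones were 1, 4 and 5 of 9 tested in males, females and recipients, with the clock repressor Cry1 at -0.46 in males and the cell cycle repressor E2f8 at 0.63 in recipients, both at an unadjusted p under 0.05. Vdr was at or below 10 counts in each male library and did not pass the filter on low counts in any of the 3 comparisons, and hepatocytes are known to express little of it. Of 6 vitamin D targets 2 were expressed enough to be tested.

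The NR4A receptors are immediate early genes with no known need for a ligand. Nr4a1 (Nur77) was at 1.81, 1.83 and 1.47 CPM in LDP males and 1.70, 1.68 and 2.34 in control males (log2 fold change -0.17, SE 0.197, adjusted p = 0.935). LDP females were at 1.55, 1.4 and 3.47 CPM, high only in female 54, against 1.81, 1.0 and 1.64 (log2 fold change 0.52, SE 0.394, adjusted p = 0.999). Recipients were at 1.34, 1.4 and 1.35 against 0.796, 0.535 and 1.98 CPM (log2 fold change 0.30, SE 0.439, adjusted p = 0.908), with the controls spread on both sides. Nr4a2 was at -0.59 in males and -0.44 in females, from levels of about 1 CPM or less. Of other immediate early genes the higher ones were 6 of 19 tested in males, 10 of 17 in females and, in recipients, 7 of 17, and the stress-induced Atf3 was at -0.86 in males and 1.75 in females (adjusted p = 0.920 and 0.924). In females Btg2, an antiproliferative gene, was at 0.33 and Junb at 0.28, and in recipients Junb at -0.62 and Fosl2 at -0.56, at an unadjusted p under 0.05.

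Of the 14 receptors of the family outside the 35, 7 were tested in males and 6 in each of the other comparisons. With LDP 5 were higher and 2 lower in males (median log2 fold change 0.05), and 3 and 3 in females (-0.03). With LDP microbiota 1 was higher and 5 were lower (-0.23). At an unadjusted p under 0.05 was 1, higher in males (3.17% of all genes), and 1 was higher there without overlap (5.69% of all genes). None passed after adjustment. Enzymes that make or break down receptor ligands numbered 22 tested in males, 5 of them higher and 1 lower at an unadjusted p under 0.05. Over all genes 3.17% were higher and 2.06% lower there, and 2.25% were higher in recipients. Those with the smallest p-values were Cyp2r1, the vitamin D 25-hydroxylase (log2 fold change 0.36), Srd5a1, the steroid reductase (-0.46), and the aldehyde dehydrogenase gene Aldh1a7 (0.31). In females none of 21 was at that level, and in recipients 3 of 22 were, all higher: Cyp46a1, the cholesterol 24-hydroxylase, at 101 ± 70.0 against 3.29 ± 0.951 CPM (SD, n = 3; log2 fold change 4.93, adjusted p = 0.777), Aldh1a7 at 1.07 and Aldh1a1, the retinal dehydrogenase of liver, at 0.76.

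Coactivator genes, whose products are recruited by ligand-bound receptors, were lower in recipients for 15 of 17, with a median of -0.24, and 3 had an unadjusted p under 0.05: the acetyltransferase gene Ep300 (log2 fold change -0.45), Ncoa6 (-0.31) and Ppargc1b (-0.46), with an adjusted p of 0.846 for each. Over all genes 2.86% were lower at that level in recipients. In males 10 of 16 coactivators and in females 10 of 17 were higher. Corepressors were lower for 8 of 10 in recipients, with a median of -0.15 and none at an unadjusted p under 0.05. By tertile of length over all genes with a length, the median log2 fold change in recipients was 0.10 for the shortest genes and -0.12 for the longest. Among the receptors themselves, 7 of the 8 with long models were lower there (median -0.25), against 10 of the other 25 (median 0.04). With a per-library offset for length, Nr1h4 was at 0.29 and Pparg at 0.45 in recipients, both at an unadjusted p under 0.05. That offset also moved the median over all genes from -0.01 to 0.06, so these values are not on the scale of the main fit.

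**Figure D5:**
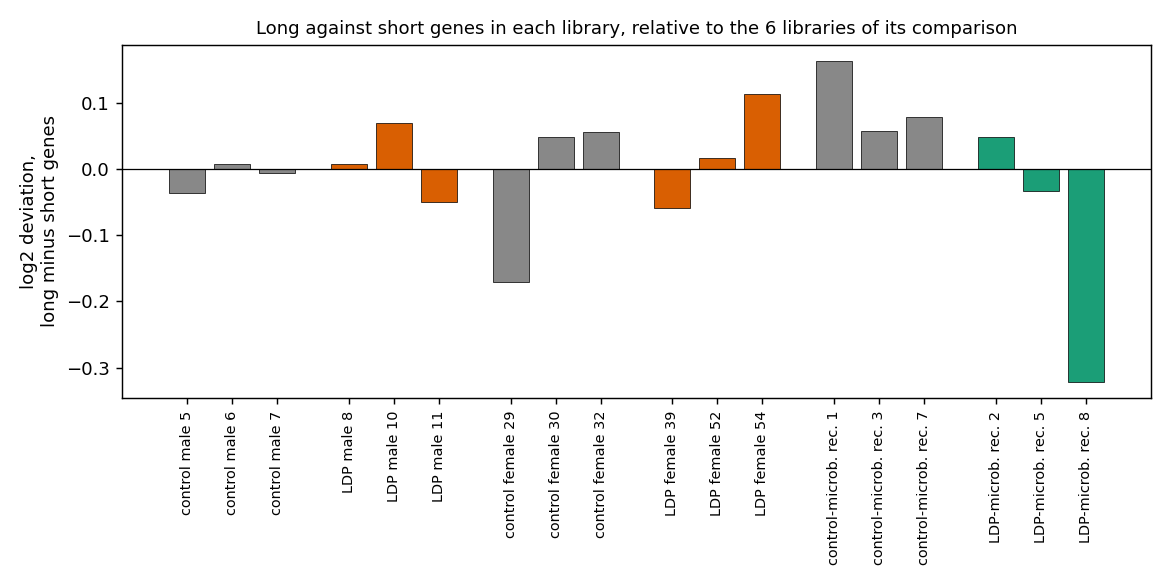
Median log2 deviation of long genes minus that of short genes in each library, relative to the mean of the 6 libraries of its comparison. LDP-microbiota recipient 8 stands at -0.32 and control female 29 at -0.17, while the males lie between -0.05 and 0.07.

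Cell type markers were also counted, and none passed after adjustment. In LDP males 11 of 12 Kupffer cell genes were lower, 8 at an unadjusted p under 0.05, against 2.06% of all genes. Their summed levels were 702 to 740 against 749 to 851 CPM, and none was at 0. In LDP females mesothelial genes were higher for 5 of 5 tested, at 9.15 to 24.2 against 5.84 to 6.92 CPM. Of 10 hepatocyte genes in recipients, 3 were higher and 7 lower (median log2 fold change -0.07), with Cps1 (-0.57) alone at an unadjusted p under 0.05. Their summed level was 169895 to 201358 CPM with LDP microbiota and 140548 to 175990 without. Of 12 stellate genes 8 were higher and 4 lower (median 0.06), with Ecm1 (0.72) alone at that level. Summed stellate levels were 639 to 718 against 531 to 665 CPM. The part of these cell types in the receptor values was not tested.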

How the data were processed

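Liver RNA of 18 mice was sequenced as 1 library per mouse. The authors deposited raw counts per gene, in 1 table for the 6 males, with a gene length in bases, and another for the 12 females. Without giving roles, the submitters' processing notes list the mm10 genome, DESeq, featureCounts 1.4.3-p1, HTSeq 0.5.3p9 and STAR 2.3.0e. Strandedness and the handling of reads that match more than 1 gene are not given in the sources used here, so overlapping antisense genes and close paralogues cannot be told apart. Of 38924 Ensembl identifiers in the male table, 37607 (96.6%) were matched to a symbol, and 20063 symbols were in both tables. The number of columns left unmatched to a mouse was 0.

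Each comparison used its own 6 libraries. In edgeR 4.0.16 (R 4.3.3), low genes were removed with filterByExpr (count 10, total 15), libraries were scaled by TMM, and genes were tested with robust quasi-likelihood F tests. P-values were adjusted over all genes by Benjamini and Hochberg's method, with a threshold of 0.05. Differences of effects were fitted with 1 coefficient per group. CPM use TMM-scaled library sizes of that comparison, and the SE, derived from F, is approximate. P-values weigh the difference between groups against a spread between mice that is estimated partly from other genes. They treat the mice as independent. The fits were also run on data simulated from the same kind of model with independent mice. Such data cannot show effects of shared cages or of gene length.

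The receptors and lists were chosen with earlier results of these data known, and some lists share genes. Receptors given in full have an unadjusted p under 0.05 or groups that do not overlap, or the highest length-scaled level of their role group. Of each list of target genes, ligand enzymes, coactivators, corepressors and immediate early genes, up to 3 genes of smallest p, where it is under 0.05, are named. This rule was not applied to the receptors outside those described, to cell type markers or to further lists. Those lists are described in part or left out, and some hold unnamed genes with an unadjusted p under 0.05. Other values were chosen after they were seen. Alternatives were DESeq2 1.42.0, other scalings, filters and fits, and leaving out each mouse. An offset for gene length was added after the data were seen. It was estimated without TMM and then combined with TMM, so it also shifts the scale shared by all genes.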

Additional observations from a re-analysis of the deposited data

How the results depend on the processing

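The 15 receptor results traced were picked for an unadjusted p under 0.05 or groups that do not overlap. None changed sign among 225 values recomputed under the alternatives. Since the same mice were reused, that choice made a change of sign unlikely from the start. No receptor was called under any alternative. Genes called over the whole tables moved more. DESeq2 called 42 in males (edgeR 1), 15 in females (0), 28 in recipients (1), and 12 and 1 for the differences of females from recipients and of males from females (0 each). With no filter on low counts 2, 1 and 2 were called in males, females and recipients. With 12 libraries sharing the spread 0 were called in males and 3 in recipients, with library size alone 0 in recipients and with the length offset 2. The number of receptors at an unadjusted p under 0.05 in females fell from 2 to 1 with DESeq2, where Nr0b2 remained. It also fell to 1 with relative log expression or upper quartile factors or no filter, where Rara remained and Nr0b2 did not. In females Nr0b2 was at that level in 7 of 15 alternatives. In recipients the number fell from 2 to 1 with library size alone, where Nr2c1 was at that level and Nr1h4 and Pparg were not. Leaving out 1 mouse gave 0 to 66 genes called in males (66 without LDP male 11), 0 to 1 in females, 0 to 4 in recipients (4 without LDP-microbiota recipient 8), and 0 to 3 and 0 to 1 for the differences. Receptors at an unadjusted p under 0.05 then numbered 0 to 7 in males (0 without LDP male 8, 1 without control male 5, 7 without LDP male 11), 0 to 4 in females (0 without LDP female 54, 4 without LDP female 39) and 1 to 4 in recipients (1 without control-microbiota recipient 1). No paired analysis was possible because the labels give no cage, litter or donor that could link mice across groups. Depth limits the lowest receptors, such as Hnf4g with 16 to 73 counts per male library.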
